A study of Mus musculus with 5 samples.

Results

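The genes described here encode the subunits of the mitochondrial respiratory chain and of ATP synthase, together with a few factors that share their name stems. They were chosen by symbol, as every gene that starts with mt-Nd, mt-Co, mt-Cyb, mt-Atp, Ndufa, Ndufb, Ndufc, Ndufs, Ndufv, Uqcr, Cox4i, Cox5, Cox6, Cox7 or Atp5. The rule found 97 of the 21995 genes of the count matrix. Of these, 85 lie in the nucleus, on 19 chromosomes, and 12 on the mitochondrial chromosome. The nuclear set held 36 subunits and 8 assembly factors of complex I, 8 subunits of complex III, 14 subunits of complex IV and 16 subunits of ATP synthase (complex V). Ndufa4l2, Cox7a2l and Atp5s, which carry the names without being core subunits, made up the remainder. The mitochondrial set held 7 subunits of complex I, 3 of complex IV and 2 of complex V. The mt-Cyb stem matched no gene, because the file spells cytochrome b as mt-Cytb, which was followed beside the members.

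Neutrophils were sorted as DAPI-negative CD11b+ Ly6G+ cells from the bone marrow, blood, spleen, liver, lung and intestine of C57BL/6 mice, an inbred laboratory strain, kept at steady state. The young animals' age is given as 10 weeks in the sample labels and as 8 weeks in the design text, and the old animals were 20 months old. All samples of an experiment were loaded together on 1 BD Rhapsody cartridge, a microwell system that tags each captured mRNA with a unique molecular identifier (UMI), and the experiment was done in 2 rounds, here the pools YO1 and YO2. Barcodes show which pool a cell came from and nothing of its tissue or age, so every comparison below is between kinds of cell, with the 2 pools as its replicates.

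The respiratory chain passes electrons from NADH through complex I, ubiquinone, complex III and cytochrome c to complex IV, which reduces oxygen. The proton gradient this builds drives ATP synthase. Most subunits are encoded in the nucleus, translated in the cytosol and imported, while the core subunits are encoded by the mitochondrial DNA and must be assembled with them. Neutrophils are known for making most of their ATP by glycolysis and for having few mitochondria once mature, whereas their dividing precursors in the marrow are richer in mitochondria. During maturation neutrophils first make azurophil granules while they divide, then secondary granules with lactoferrin (Ltf) and Ngp. At last they lose both transcripts, while S100a8 and S100a9 mRNA remains.

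Kept cells had 200 UMIs or more, 100 genes or more and a mitochondrial share under 20%, which gave 19505 cells of YO1 and 17215 of YO2, with medians of 1231 and 1454 UMIs. The mitochondrial limit alone removed 257 and 375 barcodes. Stages were assigned in order: cycling (Mki67 plus Top2a at least 2 UMIs), Ltf-high (Ltf at least 5), late immature (Ngp at least 10 with Ltf under 5) and mature (S100a8 plus S100a9 at least 2% of UMIs with Ngp under 3). The stages held 828 and 182 cycling, 2234 and 451 Ltf-high, 444 and 33 late immature and 10325 and 10045 mature cells of YO1 and YO2. Their median depth fell along that order, from 6212.5 and 7928.5 UMIs in cycling cells to 1029 and 1353 in mature cells. Because the gates count UMIs, a deep cell passes them more readily. Close to the limits, 75 and 42 cycling cells had exactly the minimum of cell-cycle UMIs and 1169 and 1705 mature cells had an S100 share between 2 and 3%. The libraries share 406 barcode labels, which are treated as different cells.

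The stages carried the markers they are named for, but the cycling gate also took in cells with markers of other lineages. Summed cell-cycle markers stood at 4113 and 3569 CPM (UMIs of a gene per 1e6 UMIs of the class) in cycling cells and at 12.4 and 4.90 in mature cells, and secondary granule markers at 106340 and 107370 in Ltf-high cells. Azurophil granule markers, which early dividing neutrophil precursors carry, reached 4389 CPM in the cycling cells of YO1 and only 34.9 in those of YO2. The cycling gate was applied first, and 639 of its cells in YO1 and 65 in YO2 also had at least 5 Ltf UMIs. Cycling is therefore not a class without lactoferrin mRNA, and its make-up differed between the pools. Of the cycling cells, 258 in YO1 (31.2%) and 122 in YO2 (67.0%) had at least 3 UMIs over at least 2 markers of another lineage, most often the classical monocyte list (156 and 50 cells) and, in YO2, the plasma (60) and dendritic (37) lists. The same held for 6.94% and 8.14% of mature cells, at a far lower depth. Some of these markers, such as Ly6c2, are also made in early myeloid cells. Results are for all cells of a stage unless the text says that cells with such markers were left out (cycling cells then also had to hold neutrophil transcripts). Those were 564 and 55 cycling, 1919 and 349 Ltf-high, 368 and 26 late immature and 9608 and 9227 mature cells.

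Both genomes' respiratory transcripts took a larger share of the mRNA in cycling cells than in any later stage. The nuclear members held 1.31% of UMIs in YO1 (95% exact interval 1.30 to 1.31) and 1.18% in YO2 (1.16 to 1.2) in cycling cells, 0.767% and 0.733% in Ltf-high cells, 0.571% and 0.488% in late immature cells and 0.564% and 0.524% in mature cells. Cycling lay above Ltf-high and Ltf-high above the 2 later stages in each pool. Late immature and mature cells overlapped. Intervals here and below cover the counting of UMIs only, not differences between mice.

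The 12 mitochondrially encoded members held 3.70% and 3.85% of UMIs in cycling cells, 1.52% and 1.47% in Ltf-high, 1.12% and 0.974% in late immature and 1.30% and 0.916% in mature cells. Without cells bearing other-lineage markers the cycling share was 3.08% in YO1 and 1.62% in YO2, and the mature share 0.925% and 0.633%. The nuclear share moved less, to 1.18% and 1.03% in cycling and 0.518% and 0.499% in mature cells. On that footing cycling cells still held the highest shares of each genome in each pool, but the pools no longer matched for the mitochondrial one. The count of mitochondrially encoded UMIs per nuclear-encoded UMI was 2.83 and 3.26 in cycling cells and 2.30 and 1.75 in mature cells, and 2.61 and 1.58 against 1.79 and 1.27 without those cells.

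**Figure D1:**
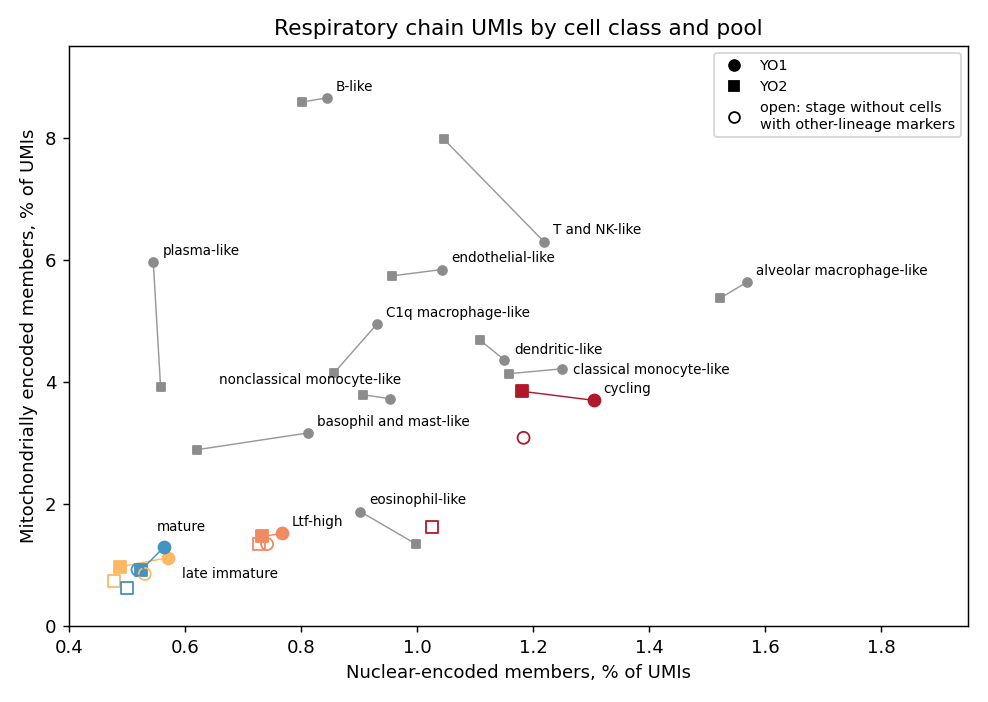
Each point is the summed UMIs of 1 cell class in 1 pool, with the nuclear-encoded share on the x axis and the mitochondrially encoded share on the y axis, both in % of all UMIs (open symbols, stages without cells bearing other-lineage markers). The 3 later neutrophil stages sit at the lower left with nuclear shares of 0.488% to 0.767%. With all cells, cycling cells lie among the monocytes at 1.31% and 1.18%, but they include cells with monocyte markers. The open cycling symbols lie lower on both axes, above all on the y axis in YO2.

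Other cells that had passed the Ly6G sort were defined by at least 3 UMIs over at least 2 markers of a single lineage. They also had S100a8 plus S100a9 under 2% of UMIs, Mki67 plus Top2a under 2 UMIs and no neutrophil stage. Each such class held a larger mitochondrially encoded share than mature neutrophils. B-like cells (237 and 326 cells) held the highest share, 8.65% and 8.58%, with a nuclear share of only 0.844% and 0.802%, so that each nuclear UMI was matched by 10.2 and 10.7 mitochondrial ones. Alveolar-macrophage-like cells (269 and 212) held the highest nuclear share, 1.57% and 1.52%, with 5.63% and 5.37% mitochondrial. Classical-monocyte-like cells (657 and 340) held 1.25% and 1.16% nuclear and 4.21% and 4.13% mitochondrial UMIs, close to the values of all cycling cells. Of those cycling cells, 156 and 50 had markers of the classical monocyte list. Without cells bearing other-lineage markers, cycling cells held lower shares of both genomes. Eosinophil-like cells (203 and 12), the other granulocyte, came nearest to neutrophils in the mitochondrial share, 1.88% and 1.34%, but held more nuclear members, 0.902% and 0.998%. Plasma-like cells, whose mRNA is dominated by immunoglobulin, were as low in nuclear members as mature neutrophils (0.545% and 0.558%) but had a mitochondrial share of 5.96% and 3.91%.

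Single cells of 1 stage varied widely. The median mature cell held 0.457% mitochondrially encoded members in YO1 (quartiles 0.223% to 0.923%) and 0.351% in YO2 (0.180% to 0.6%) and the summed shares of 1.30% and 0.916% lay above the upper quartile of cells. The nuclear share of the median mature cell, 0.504% and 0.482%, lay close to the summed one. In cycling cells the median mitochondrial share was 3.0% (2.08% to 4.43%) and 3.45% (1.86% to 4.96%), and the quartile ranges of cycling and mature cells did not overlap in either pool. Ltf-high cells had a median of 1.16% in each pool and late immature cells 0.638% and 0.667%. Going by the median cell, the mitochondrial share thus declined at each stage, including the last, where the summed shares of YO1 were 1.12% and 1.30%.

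**Figure D2:**
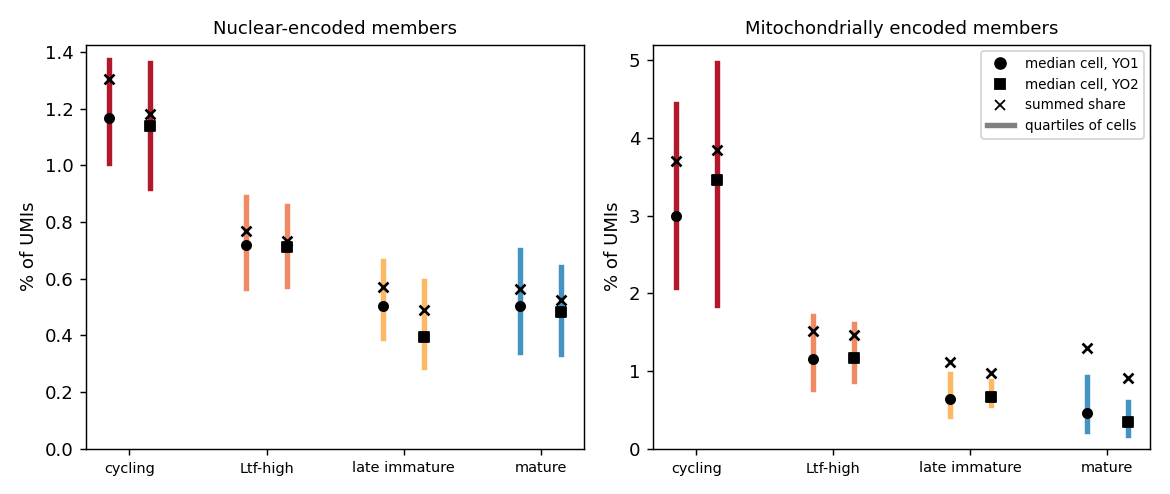
Each symbol is the median over the cells of a stage in 1 pool, the bars span the quartiles of cells and the crosses give the summed share, in % of UMIs, for nuclear-encoded and mitochondrially encoded members. The crosses lie far above the median for mitochondrially encoded members in mature cells (1.30% against 0.457% in YO1) and close to it for nuclear members.

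Comparing cycling with mature cells gene by gene, most nuclear members were higher and 5 were lower. UMIs were summed per stage and pool and tested with edgeR's quasi-likelihood test, pool as a block, with Benjamini-Hochberg adjustment over the 10403 genes tested. The threshold was an adjusted p of 0.05, two-sided. Of the 85 nuclear members 81 were tested, and 46 rose while 5 fell. The background in this comparison was high, since 30.3% of all tested genes rose and 30.2% fell. The median log2 change was 0.82 for the nuclear members and 0.10 for all genes. The test's log2 changes are scaled by TMM, which assumes that most genes do not differ and gave the cycling sums factors of 1.44 and 1.57 against 0.937 and 0.904 for mature cells, while the CPM values printed here are per total UMIs. Scaled to total UMIs instead, the median over all genes moved to 0.80, 72 nuclear members rose and none fell (background 46.8% and 17.9%). Without cells bearing other-lineage markers 57 of 78 rose and 3 fell (background 36.2% and 36%). That fit, over 8677 genes, weighted the spread shared across genes more heavily (median prior degrees of freedom 47.6 against 8.8 with all cells), so its p-values are smaller at a like standard error and the counts of the 2 fits are not on an equal footing. Over both genomes, 51 of the 57 members that rose with all cells rose without those cells too. The count of nuclear members that rose was 28 without mature replicate 1 (YO1) and 29 without mature replicate 2 (YO2). Each group is 2 pools, so the p-values measure only how far the pools disagree.

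**Figure D3:**
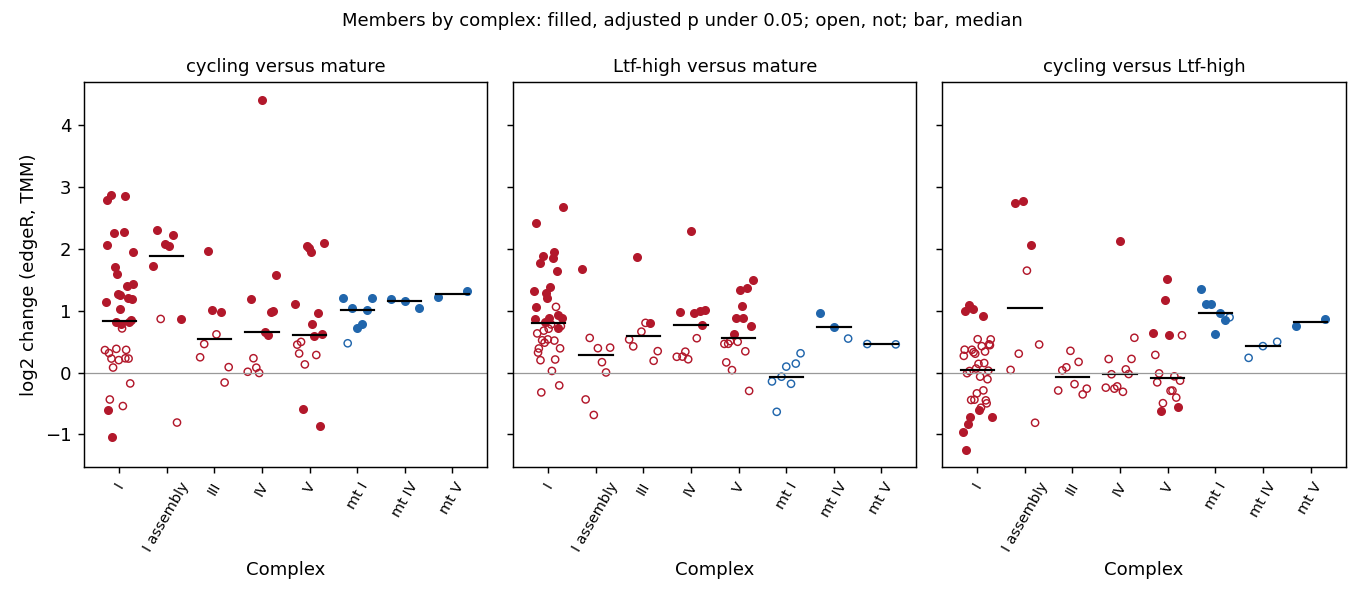
Each point is 1 member, placed by complex, with its log2 change (edgeR, TMM scale) on the y axis and 1 panel per comparison of stages; filled points had an adjusted p under 0.05 and bars are medians. In cycling against mature cells most points of each complex lie above 0, while in cycling against Ltf-high cells the nuclear members centre near 0 (median 0.04).

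Complex I, the NADH dehydrogenase, had 21 of 36 nuclear subunits higher in cycling than in mature cells and 2 lower (background 30.3% and 30.2%). Ndufa5 (chr6:24518666-24528013, minus strand), an accessory subunit of the matrix arm, stood at 49.2 and 44.9 CPM in cycling cells of YO1 and YO2, 13.9 and 11.6 in Ltf-high, 4.23 and 9.23 in late immature and 4.87 and 3.10 in mature cells. Cycling cells of each pool lay above all other stages. Its log2 change from mature to cycling was 2.87 (SE 0.33, edgeR adjusted p = 2.04e-05). Ndufc2, an accessory subunit of the membrane arm, went from 12.7 and 7.38 CPM in mature to 124 and 108 in cycling cells, a log2 change of 2.86 (SE 0.25, adjusted p = 2.02e-06). Ndufa11, another membrane-arm subunit, changed by 2.79 (adjusted p = 0.000101) from 2.15 and 1.74 to 22.2 and 22.1 CPM. These genes had larger changes once cells bearing other-lineage markers were left out, although the CPM of Ndufa5 in cycling cells of YO2 was lower there. Ndufa5 stood at 47.9 and 17.9 CPM in cycling and 1.23 and 1.31 in mature cells (4.34, edgeR adjusted p = 3.50e-15), and Ndufc2 at 114 and 83.6 against 3.88 and 3.27 (4.28, adjusted p = 1.33e-20).

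The catalytic core of complex I did not move as one. Among the nuclear core subunits, the flavoprotein subunits Ndufv1 and Ndufv2, which take up the electrons of NADH, rose by 1.2 (adjusted p = 0.0138) and 1.43 (adjusted p = 0.000444), and Ndufs3 by 1.41 (adjusted p = 0.01) and Ndufs8 by 0.85 (adjusted p = 0.0248). Ndufs1 and Ndufs7, which carry iron-sulfur clusters, had changes of 0.23 and -0.17 that did not pass the threshold. Ndufa2, the nuclear subunit of complex I with the most UMIs, had 290 and 343 CPM in cycling and 149 and 162 in mature cells and a change of 0.32 (adjusted p = 0.178). Ndufa7 was the lowest of the complex, at 122 and 134 CPM in cycling and 165 and 156 in mature cells, with a change of -1.04 (SE 0.20, adjusted p = 0.000986). Ndufa13, also known as a factor of cell death signalling, changed by -0.61 (adjusted p = 0.0375), and its CPM overlapped between the stages (106 and 91.9 in cycling, 88.6 and 98.0 in mature).

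Factors that help to build complex I were scarce but followed the same direction, with 6 of the 8 higher in cycling cells and none lower (background 30.3% and 30.2%). Ndufaf2 rose most, from 2.07 and 0.682 CPM in mature cells to 11.6 and 9.26 in cycling cells (log2 2.30, SE 0.69, edgeR adjusted p = 0.0125). Ndufaf7, a methyltransferase, had 10.9 and 12.1 CPM in cycling against 12.9 and 11.8 in mature cells and did not pass (-0.81, adjusted p = 0.113). Without cells bearing other-lineage markers Ndufaf2 was at 6.24 CPM in YO1 and at 0 in YO2, where 3 UMIs of the sum equal 8.96 CPM, and it was not tested. Ndufaf1, Ndufaf4 and Ndufaf6 were also at 0 in cycling cells of YO2 there, against 5.70, 17.8 and 7.12 CPM with all cells, so in that pool the cells left out held all of their UMIs. Ndufaf3, Ndufaf5 and Ndufaf8 kept 32.9, 5.97 and 35.8 CPM in YO2.

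Complex III had 3 of 8 subunits higher, near the 30.3% of all tested genes that rose, and none lower (30.2% of all genes fell). Uqcrb, which binds near the quinone site, stood at 183 and 155 CPM in cycling, 105 and 78.5 in Ltf-high, 56.1 and 18.5 in late immature and 33.5 and 20.9 in mature cells, falling from stage to stage in each pool except between the last pair in YO2. Its log2 change from mature to cycling was 1.96 (SE 0.23, adjusted p = 2.61e-05). The core protein Uqcrc1 rose by 1.02 (adjusted p = 0.00295) and the Rieske protein Uqcrfs1 by 0.97 (adjusted p = 0.0021). Uqcrh, the hinge subunit, had 257 and 304 CPM in cycling and 187 and 195 in mature cells and a change of -0.16 (adjusted p = 0.493), which became 0.55 with total UMIs.

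Complex IV, cytochrome c oxidase, had 7 of 11 tested nuclear subunits higher (background 30.3%). Cox5a rose by 1.2 (adjusted p = 0.000574), Cox7c by 1.0 (adjusted p = 0.00616) and Cox7b by 0.98 (adjusted p = 0.0018). Ndufa4, which was named as a complex I subunit but is known to belong to complex IV, rose by 1.57 (adjusted p = 0.000374) from 31.3 and 31.1 to 172 and 126 CPM. Cox4i1, Cox6a1 and Cox6b1 had changes of 0.01, 0.08 and -0.01, and the last became 0.70 with total UMIs. Cox7a2l, a factor that joins complex III to complex IV, fell by 0.56 (adjusted p = 0.048) although its CPM in YO2 was higher in cycling cells (165 and 282 against 201 and 189). Without cells bearing other-lineage markers it stood at 118 and 111 against 189 and 175 CPM, and its change was -1.15 (adjusted p = 2.72e-06).

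Complex V, ATP synthase, had 9 of 16 subunits higher and 2 lower (background 30.3% and 30.2%). Atp5o, which couples the catalytic head to the stator, went from 42.8 and 34.8 CPM in mature to 285 and 253 in cycling cells (log2 2.10, SE 0.24, adjusted p = 1.67e-05). Of the catalytic head itself, the alpha subunit Atp5a1 rose by 1.11 (adjusted p = 0.000773), while the beta subunit Atp5b, at 0.45 (adjusted p = 0.0727), and the gamma subunit Atp5c1, at 0.31, did not pass. Atp5l (chr9:44912557-44920742, minus strand), subunit g of the membrane part, was the member of the complex with the most UMIs and also its lowest, with 485 and 407 CPM in cycling, 419 and 338 in Ltf-high, 432 and 397 in late immature and 535 and 456 in mature cells. The pools overlapped between the stages. Its change was -0.86 (SE 0.20, adjusted p = 0.00341) and -0.15, not called, with total UMIs. Atp5e, the epsilon subunit, changed by -0.58 (adjusted p = 0.0336). With total UMIs the 5 members that fell had changes of -0.33 to 0.15 and none passed, so with all cells their fall is relative to the other genes. With cells bearing other-lineage markers left out, Ndufa7 stood at 103 and 105 CPM in cycling against 167 and 158 in mature cells, and it and Cox7a2l were still called lower with total UMIs (-0.66 each, edgeR adjusted p = 0.00208 and 0.00286, background 46.8% higher and 25.4% lower).

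The 3 genes of subunit c, the ring that rotates as protons pass, encode the same mature protein behind different import sequences, and they differed in when they fell. Atp5g2 (chr15:102662864-102672352, minus strand) stood at 533 and 533 CPM in cycling, 120 and 94.6 in Ltf-high, 80.4 and 36.9 in late immature and 88.7 and 73.4 in mature cells, so most of its drop lay between the first pair of stages. Cycling exceeded Ltf-high cells by 1.52 (SE 0.22, edgeR adjusted p = 0.000266), and Ltf-high exceeded mature cells by 0.50, which did not pass (adjusted p = 0.108). Atp5g1 (chr11:96068852-96075670, minus strand) had 190 and 137, 47.4 and 36.2, 19.0 and 27.7, and 26.2 and 22.1 CPM in the same order, and cycling exceeded Ltf-high cells by 1.17 (adjusted p = 0.00193). Atp5g3 (chr2:73908447-73911326, minus strand) fell more evenly, with 461 and 466, 176 and 172, 126 and 139, and 80.9 and 66.8 CPM, and none of its stages overlapped. It was higher than in mature cells in Ltf-high (1.34, adjusted p = 0.000462) and late immature cells (0.94, adjusted p = 0.0366) and was 1 of only 2 members called at that last step. Whether the 3 genes differed from each other was not tested, and reads could be shared with processed copies of these genes.

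Isoforms known from other tissues were at or near 0 in the neutrophil stages, except Cox6b2 in cycling cells. Cox4i2, Cox6a2, Cox7a1 and Ndufa4l2 did not pass the filter on low counts. Cox7a1, the heart and muscle isoform, had 10 and 11 UMIs in cycling cells and 1 and 2 in mature cells, and none in cycling cells without other-lineage markers. Cox6b2 (chr7:4751792-4753094, minus strand), the testis isoform of subunit 6b, had the largest change of all members, 4.41 (SE 0.47, edgeR adjusted p = 1.11e-05), from 10 and 16 UMIs in mature cells (0.798 and 0.992 CPM) to 163 and 51 in cycling cells (28.7 and 36.3 CPM). Alveolar-macrophage-like cells held 72.8 and 53.8 CPM of it. Without cells bearing other-lineage markers the cycling cells of YO1 kept 84 UMIs (23.8 CPM) and those of YO2 had none, where 3 UMIs would give 8.96 CPM. The pools therefore did not show its presence in cycling neutrophils alike.

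Promoter sequences were read for the nuclear members to see what they share beyond their names. Nuclear respiratory genes are known targets of NRF1 and of the ETS factor GABPA (NRF2), and many have a YY1 site at the start of transcription. RefSeq promoters (GRCm38.p6, from 250 bases before to 50 after the start) were at hand for 70 of the 85 nuclear members and searched on both strands for an exact NRF1 core, GCGCATGC, a GABPA core, CCGGAAG, and a YY1 core, AAGATGGC. NRF1 matches were found in 11 members (15.7%), against 6.42% of the 8224 genes of the table that were tested in the stage comparison. YY1 matches were also found in 11 members (15.7%) against 5.79%, and GABPA matches in 15 (21.4%) against 22.2%. Of the YY1 matches, those of 9 of 11 members began at or after the start site, against 256 of 476 tested genes with a match. The following stretches show NRF1 matches in capitals, 5′ to 3′ on the gene's strand, in 2 members that rose in cycling cells (Atp5g2 and Ndufa11), 1 that did not pass (Cox6a1) and 1 that fell (Atp5l). Where the capitals run to GCGCATGCGC, matches of both strands overlap.
Atp5g2, chr15:102671054-102671115, minus strand: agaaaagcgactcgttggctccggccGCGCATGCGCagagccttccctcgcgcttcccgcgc
Ndufa11, chr17:56717676-56717737, plus strand: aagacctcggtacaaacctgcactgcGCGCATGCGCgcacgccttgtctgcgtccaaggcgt
Cox6a1, chr5:115349085-115349146, minus strand: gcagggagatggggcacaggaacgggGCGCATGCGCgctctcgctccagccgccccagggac
Atp5l, chr9:44920949-44920992, minus strand: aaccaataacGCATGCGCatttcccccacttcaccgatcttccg

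The YY1 matches are shown in the same way for 2 complex I members that rose (Ndufc1 by 2.28 and Ndufa9 by 2.25) and for 2 that did not pass (Ndufa3 at -0.43 and Ndufs7 at -0.17). In each of the 4 the match begins 22 to 29 bases after the start.
Ndufc1, chr3:51408915-51408944, minus strand: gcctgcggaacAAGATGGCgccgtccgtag
Ndufa9, chr6:126849097-126849126, minus strand: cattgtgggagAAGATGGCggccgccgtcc
Ndufa3, chr7:3617384-3617413, plus strand: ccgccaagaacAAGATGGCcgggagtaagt
Ndufs7, chr10:80249462-80249491, plus strand: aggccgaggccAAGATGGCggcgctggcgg

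The matches did not separate members by their change. An NRF1 match was present in 6 of the 41 members with a promoter that rose in cycling cells (14.6%) and in 5 of the 28 tested members that did not (17.9%), and the YY1 counts were the same. A match describes these letters and is not evidence of binding. Of the factors' own transcripts, Yy1 fell by 1.03 in cycling against mature cells (adjusted p = 0.00386), Gabpa (0.52, adjusted p = 0.103) and Nrf1 (-0.49, adjusted p = 0.196) did not pass, and Gabpb1, the partner of Gabpa, fell by 1.09 (adjusted p = 0.0178). Per total UMIs Yy1 stood at 159 and 103 CPM in cycling and 162 and 160 in mature cells and Gabpb1 at 74.6 and 62.7 against 78.7 and 99.1, and neither was called lower on that scale.

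All mitochondrially encoded members except mt-Nd2 were higher in cycling than in mature cells, 11 of 12 (background 30.3%). Their median log2 change was 1.11 on the TMM scale. These genes lie on 2 long precursor RNAs that are cut into the mature transcripts, so they are not independent of each other. mt-Co1, the catalytic subunit of complex IV, stood at 13274 and 13531 CPM in cycling, 6289 and 6633 in Ltf-high, 4365 and 3970 in late immature and 4108 and 3095 in mature cells. It was higher in cycling than in mature cells by 1.2 (SE 0.25, edgeR adjusted p = 0.00148), and only its late immature and mature cells overlapped. mt-Nd1, a membrane subunit of complex I, had 2529 and 2889 CPM in cycling, 686 and 543 in Ltf-high, 577 and 554 in late immature and 898 and 569 in mature cells, a change of 1.21 (SE 0.23, adjusted p = 0.000968). Cycling cells stood apart and the later stages overlapped. The other called members had changes of 0.73 (mt-Nd4) to 1.33 (mt-Atp8), and mt-Cytb of complex III rose by 1.0 (adjusted p = 0.00455).

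Cells with other-lineage markers weighed on these genes more than on the nuclear ones, above all in YO2. Without them 8 of the 12 rose in cycling cells (background 36.2%). The CPM of mt-Nd1 in cycling cells went from 2529 to 1805 in YO1 and from 2889 to 597 in YO2, where mature cells had 556 and 330. mt-Nd2 had 1588 and 2350 CPM in all cycling cells against 1099 and 667 in mature cells (0.48, adjusted p = 0.139), and 1044 and 296 against 768 and 417 without them (-0.38, adjusted p = 0.182), so its pools pointed in opposite directions. mt-Nd3 (0.55), mt-Nd4 (0.43) and mt-Nd4l (0.25) no longer passed. mt-Co1, by contrast, kept 11758 and 7658 CPM in cycling against 2943 and 2205 in mature cells, a change of 1.43 (adjusted p = 7.64e-06). With total UMIs and all cells, all 12 rose, where 46.8% of all genes rose.

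**Figure D4:**
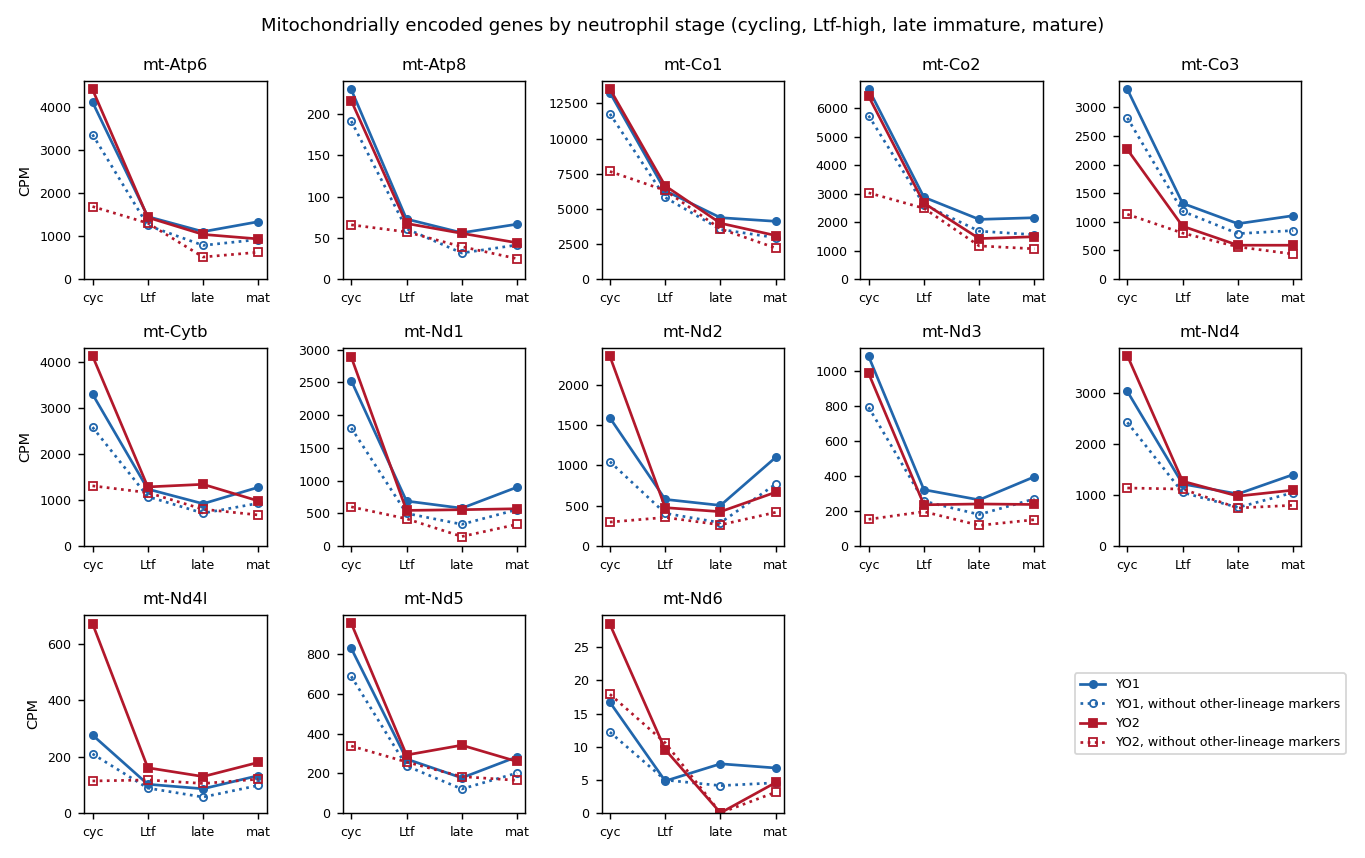
Each panel is 1 mitochondrially encoded gene, with CPM on the y axis and the 4 neutrophil stages in order on the x axis; lines join the stages of 1 pool, and dotted lines leave out cells with other-lineage markers. For mt-Nd1 the cycling value of YO2 drops from 2889 to 597 CPM without those cells, while for mt-Co1 it stays above mature cells (7658 against 2205).

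The balance between complex IV and complex I within the mitochondrial transcripts differed between stages. UMIs of mt-Co1, mt-Co2 and mt-Co3 per UMI of the 7 mt-Nd genes were 3.30 and 3.42 in Ltf-high cells, 2.82 and 2.24 in late immature and 1.75 and 1.72 in mature cells. The Ltf-high and late immature values of each pool lay above the mature values of both pools. Once cells with other-lineage markers were left out, the ratio was 2.91 and 4.46 in cycling, 3.78 and 3.89 in Ltf-high, 3.46 and 3.40 in late immature and 1.82 and 1.87 in mature cells, so that all 3 immature stages exceeded mature cells in each pool. With all cells the cycling value was 2.49 and 1.91. The classes of other lineages had ratios from 0.880 in endothelial-like cells of YO2 to 2.79 in eosinophil-like cells of YO1. The ratio was not tested as such. In the gene-wise test of Ltf-high against mature cells, mt-Co1 (0.96, SE 0.25, edgeR adjusted p = 0.0122) and mt-Co2 (0.73, adjusted p = 0.041) rose, while mt-Nd1 (-0.14) and mt-Nd2 (-0.63, adjusted p = 0.0939) did not pass.

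**Figure D5:**
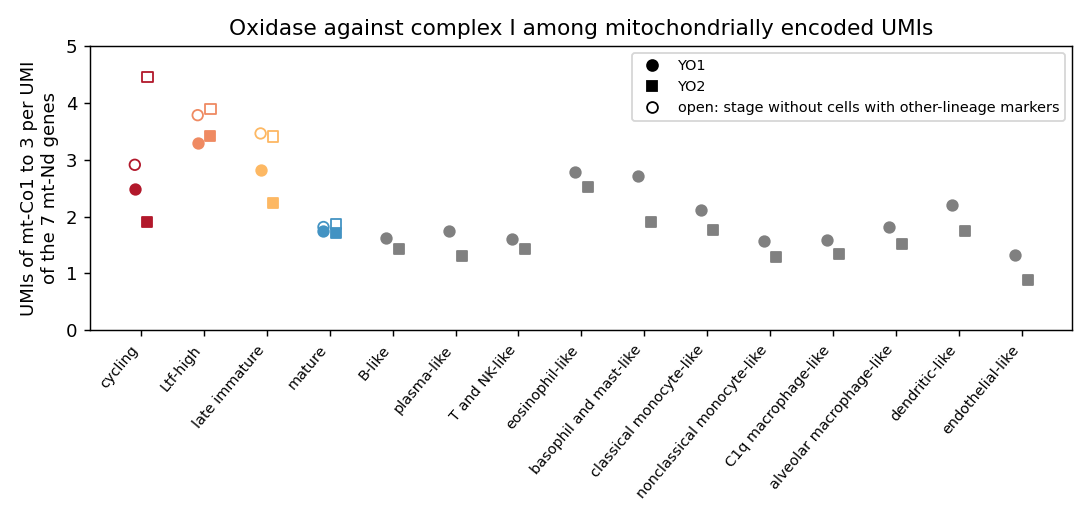
Each symbol is 1 class in 1 pool, and the y axis counts UMIs of mt-Co1 to mt-Co3 per UMI of the 7 mt-Nd genes (open symbols, stages without cells bearing other-lineage markers). Ltf-high cells reach 3.30 and 3.42 and mature cells 1.75 and 1.72, and the open cycling symbols, 2.91 and 4.46, lie above the filled ones.

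Some of these transcripts overlap. mt-Atp8 and mt-Atp6 share bases 7927 to 7969 of the mitochondrial chromosome, mt-Nd4l and mt-Nd4 share 10167 to 10173, and mt-Nd5 and mt-Nd6 overlap on opposite strands. Whether the counting used strand is not given in the sources used here, so mt-Nd6 (16.7 and 28.5 CPM in cycling, 6.78 and 4.59 in mature cells) is uncertain.

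In Ltf-high against mature cells 35 of the 81 nuclear members rose and none fell, against a background of 14.8% and 14.9% of all genes. The nuclear median was 0.66 and that of all genes -0.01. By complex 18 of 36 subunits of complex I, 2 of 8 of complex III, 6 of 11 of complex IV and 8 of 16 of complex V rose. Ndufv3, a small accessory subunit of the NADH-binding arm, changed most, at 176 and 153 CPM in Ltf-high, 112 and 64.6 in late immature and 31.4 and 24.2 in mature cells (2.68, SE 0.26, edgeR adjusted p = 2.46e-05). It was also the only complex I member that rose in late immature cells (1.85, SE 0.31, adjusted p = 0.00454). Ndufa1 (1.32, adjusted p = 0.000609), Ndufb7 (1.39, adjusted p = 0.000483) and Atp5g3 rose as well. The count was 14 without Ltf-high replicate 2 (YO2), 15 and 20 without mature replicate 1 or 2, and 54 without cycling replicate 2, which enters through the shared spread. With such cells removed, 51 rose and 2 fell (background 27.8% each way), and all 37 members of either genome that rose with all cells rose there too.

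Late immature cells differed little from mature ones at this depth. Ndufv3 and Atp5g3 rose, no other member passed, and 3.42% of all genes rose and 2.52% fell. At an unadjusted p under 0.05 there were 10 nuclear members and 1 mitochondrial one, and DESeq2 called 5 nuclear members higher. The 3.42% and 2.52% are at the adjusted threshold of edgeR and are no background for the unadjusted counts. The YO2 sum came from 33 cells with 108299 UMIs, in which 3 UMIs equal 27.7 CPM. Neither member was called without late immature replicate 1 or 2, and 8 were called without either cycling replicate. The YO2 sum also carried 33334 CPM of plasma cell markers, against 68.8 in YO1, and their part in the result was not tested. In cells without other-lineage markers, 7 nuclear members rose and mt-Nd2 fell by 1.07 (background 8.41% and 8.04%). With total UMIs 1 nuclear member rose (background 2.73% and 3.56%). When the gates were applied to cells thinned to 500 UMIs, the late immature class held other, deeper cells (671 and 156, medians 3700 and 4922.5 UMIs) and 43 nuclear members rose.

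Between cycling and Ltf-high cells, nuclear members were called in both directions with TMM, each less often than genes at large. With all cells the mitochondrial members were called in 1 direction only. Of the nuclear members 13 were higher in cycling cells and 8 lower, against 19.5% and 26.7% of all genes, with a median of 0.04. Of the mitochondrial members 8 were higher and none lower (median 0.86), led by mt-Nd1 (1.35, SE 0.24, edgeR adjusted p = 0.00083), while mt-Co1 at 0.24 did not pass (adjusted p = 0.443). Among those higher were Atp5g1, Atp5g2, Atp5a1, Ndufc2, Ndufa12, Ndufab1 and 3 assembly factors. Among those lower were Ndufa1 (-0.96, adjusted p = 0.00339), with 171 and 202 CPM in cycling and 184 and 235 in Ltf-high cells, and Ndufa13 (-1.24, adjusted p = 0.00134). With total UMIs 56 nuclear members were higher and none lower (background 38.6% and 9.24%), and the median over all genes moved from -0.12 to 0.66. The TMM calls in both directions are thus a ranking against other genes. Leaving out cells with other-lineage markers, 3 mitochondrial members were higher (background 20.5%). Of the 21 members of both genomes called higher with all cells, 13 were called there. Without Ltf-high replicate 1 or 2, 4 nuclear members were higher, and without cycling replicate 1, 11 were higher and 18 lower. Ndufv3, lower by 0.72 with all cells (adjusted p = 0.0321), was at -0.03 without cells bearing other-lineage markers.

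Across the 4 comparisons 25 members were higher in cycling and in Ltf-high than in mature cells with no other call. Another 13 were higher in cycling cells than in each of those stages with no call between Ltf-high and mature cells, and 24 were called nowhere. These comparisons share sums and are not independent. How many of all genes had the same patterns was not counted, so the counts describe the members only. Of all tested genes 30.3% rose in cycling and 14.8% in Ltf-high against mature cells.

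Mature cells with transcripts of inflammatory activation (Il1a, Ccrl2 and Nr4a3 at least 3 UMIs) had a mitochondrial share of 1.74% and 1.27% against 1.26% and 0.870% in other mature cells. The nuclear share was 0.568% and 0.549% against 0.562% and 0.523%. No member passed edgeR's test, 0 of 77 nuclear and 0 of 12 mitochondrial, where 0.342% of all genes rose and 0% fell. At an unadjusted p under 0.05 there were 2 nuclear and 9 mitochondrial members, 4 and 5 without cells bearing other-lineage markers and 3 and 10 with total UMIs. The 0.342% is at the adjusted threshold and is no background for these unadjusted counts. The median log2 difference of the 12 mitochondrial members was 0.54. mt-Nd1 had a difference of 0.73 (SE 0.24, adjusted p = 0.486), with 0.67 in YO1 and 0.80 in YO2. Mature cells with interferon-induced transcripts held 1.63% and 1.01% mitochondrial and 0.591% and 0.504% nuclear UMIs.

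Against mature neutrophils, 9 other lineages had enough cells in each pool for a test, with 79 nuclear members tested. Mitochondrially encoded members were higher in nearly all of them: all 12 in B-like, C1q-macrophage-like, alveolar-macrophage-like, dendritic-like and endothelial-like cells, 11 in T-and-NK-like and classical-monocyte-like cells, 10 in nonclassical-monocyte-like cells and 1 in basophil-like cells. Counts of nuclear members differed between lineages with TMM. Alveolar-macrophage-like cells had 48 higher and 5 lower (background 28% and 36%) and classical-monocyte-like cells 35 and 4 (21.9% and 30.1%). Dendritic-like cells had 27 and 9 (22.7% and 29.5%), endothelial-like 25 and 13 (28.3% and 30.3%) and nonclassical-monocyte-like 18 and 13 (14.4% and 24.8%). B-like cells had 17 and 23 (22% and 29%), C1q-macrophage-like 16 and 15 (18.5% and 26.5%), T-and-NK-like 13 and 12 (13.9% and 24.8%) and basophil-like 3 and 21 (6.79% and 20%). These comparisons share the mature sums. The median over all genes was -0.77 to -0.13 with TMM and 0.31 to 0.85 with total UMIs, so the counts in both directions depend on the scaling. With total UMIs B-like cells had 49 nuclear members higher and 3 lower (background 42.7% and 14.7%), C1q-macrophage-like 48 and 0 (35.4% and 10.8%), T-and-NK-like 47 and 0 (31.4% and 10.5%) and basophil-like 17 and 3 (17.3% and 6.76%). On the same scale alveolar-macrophage-like cells had 72 and 0 (45.2% and 19.9%), classical-monocyte-like 70 and 0 (43.5% and 13.3%), dendritic-like 61 and 0 (37.1% and 16.5%), endothelial-like 58 and 1 (47.5% and 16.2%) and nonclassical-monocyte-like 53 and 0 (35% and 9.5%). Basophil-like cells then had 11 mitochondrial members higher.

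Atp5g2 and mt-Atp6 were higher in all 9 lineages than in mature neutrophils, also with total UMIs and without neutrophils bearing other-lineage markers. With total UMIs many other members were also higher in all 9, among them Atp5a1, Atp5g1 and mt-Co1. Atp5g2 had 88.7 and 73.4 CPM in mature neutrophils. Ndufa7, Ndufb9, a complex I subunit, and Atp5l were lower in all 9 lineages with TMM, but with total UMIs only in 2, 2 and 3 of them. Per lineage 20% to 36% of all genes were lower with TMM. How many of all genes were called in all 9 lineages was not counted.

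Genes that serve the chain without being members gave counts in both directions in cycling against mature cells with TMM, where 30.3% of all genes rose and 30.2% fell, and nearly all in 1 direction with total UMIs. Cytochrome c (Cycs, 1.88, edgeR adjusted p = 0.0012) and cytochrome c1 (Cyc1) rose with mt-Cytb, and Cox8a, a complex IV subunit outside the name rule, fell by 0.71 (adjusted p = 0.0117). Of complex II, which also belongs to the tricarboxylic acid cycle, Sdhc rose by 0.86 (adjusted p = 0.0128), Sdhd fell by 0.73 (adjusted p = 0.0232) and the other 2 did not pass. Assembly factors of complex IV were 6 higher and 4 lower of 15, from the heme-modifying enzyme Cox10 (3.01, adjusted p = 0.000926) to the copper chaperone Cox17 (-1.41, adjusted p = 0.000404). Assembly factors of complexes III and V were 2 higher of 7, led by Atpaf1 (1.79, adjusted p = 0.0103). The tricarboxylic acid cycle had 7 of 13 higher and 1 lower, with Idh3a going from 1.28 and 1.49 to 20.0 and 24.9 CPM (3.27, adjusted p = 0.000654) and Mdh2 at -0.78 (adjusted p = 0.00792). With total UMIs (background 46.8% and 17.9%) complex II had 3 higher and 0 lower, oxidase assembly 9 and 1, assembly of complexes III and V 6 and 0, and the tricarboxylic acid cycle 12 and 0. Cox8a, Sdhd and Mdh2 were then no longer called lower.

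Genes that make and fill mitochondria leaned higher in the same comparison, where 30.3% of all genes rose and 30.2% fell. The mitochondrial ribosome had 52 of 77 higher and 2 lower, from Mrpl45 (3.27, adjusted p = 1.7e-05) to Mrpl33 (-2.19, adjusted p = 9.2e-06). Protein import and chaperones had 10 of 13 higher and 1 lower, from the outer membrane channel Tomm40 (2.05, adjusted p = 0.00052) to Tomm22 (-0.63, adjusted p = 0.0167). Maintenance and expression of mitochondrial DNA had 7 of 12 higher and 1 lower, from Tfb1m (3.62, adjusted p = 0.000407) to Polg2 (-2.02, adjusted p = 0.0088). Carriers and channels had 5 of 8 higher and 1 lower, with the ADP/ATP carrier Slc25a4 at 2.31 (adjusted p = 0.00399) and the uncoupling protein Ucp2 at -1.08 (adjusted p = 0.00302). With total UMIs 68 genes of the ribosome were higher and 1 lower, and the falls of Tomm22, Polg2 and Ucp2 were no longer called. In Ltf-high against mature cells (background 14.8% and 14.9%) the mitochondrial ribosome had 18 of 77 higher and 2 lower. Without cells bearing other-lineage markers it had 39 of 69 and 7, where the background was 27.8% each way. Import had 2 higher of 13 with all cells, near the background.

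Glycolysis, the pathway neutrophils rely on, leaned higher in Ltf-high than in mature cells, as the nuclear members did. Its counts differed from theirs in the comparisons with cycling cells. In cycling against mature cells 1 of its 15 genes rose, Tpi1 (0.98, edgeR adjusted p = 0.0089), and 6 fell (background 30.3% and 30.2%). The glucose transporter Slc2a1 fell most, from 123 and 112 CPM in mature to 11.4 and 12.1 in cycling cells (-4.0, edgeR adjusted p = 6.62e-06). In Ltf-high against mature cells 8 glycolytic genes rose and 1 fell (background 14.8% and 14.9%), and 13 of 15 were lower in cycling than in Ltf-high cells (26.7% of all genes). With total UMIs 9 were lower and 1 higher in that last comparison (background 9.24% and 38.6%). For cycling against mature cells the count with total UMIs was 4 higher and 2 lower (background 46.8% and 17.9%). Without cells bearing other-lineage markers it was 6 higher and 5 lower (background 36.2% and 36%). Among regulators of respiratory genes 2 of 7 rose and 2 fell in cycling against mature cells, near the background of 30.3% and 30.2%. With total UMIs 3 rose and 0 fell (background 46.8% and 17.9%). Myc had the highest change with TMM (2.92, edgeR adjusted p = 0.00128).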

How the data were processed

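UMI counts were deposited by the authors as 1 matrix of whole numbers per gene and barcode and used as raw counts. The submitters' processing notes name the build mm10. For the aligner, annotation, cell calling and use of strand, the method is not given in the sources used here. Libraries of sample tags and antibody oligos were not analysed.

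Kept cells were gated by UMIs into stages and lineages, with no doublet caller run. Counts were summed per class and pool and tested with edgeR 4.0.16 in R 4.3.3 (quasi-likelihood test with the pool as a block, filterByExpr and TMM, two-sided, with Benjamini-Hochberg adjustment over all tested genes). The pool is a block because the stages of a pool share a library. The pools' differences correlated between stages over 6818 genes (r from 0.19 to 0.60). DESeq2 1.42.0 and other filters, gates and scalings were run as alternatives. Every class of a comparison needed at least 30 cells in each pool, except the 4 stages. CPM is relative to all UMIs of a class sum, and 3 UMIs set the limit for a count of 0. Shares carry exact Clopper-Pearson intervals of 95%. The fit was tested on simulated data for cycling against mature cells, and a gene that did not pass is not shown to be unchanged. Nothing bears on how many mice a pool held, so the spread between pools may be technical.

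The members, gene lists, gates and tests were chosen with earlier results of these data known. Genes were named by a rule: all mitochondrially encoded members, isoform families, and for each complex or list the highest and lowest change and, for complexes, the highest level. Further subunits, Yy1, Gabpa, Nrf1 and Cyc1 were named after their values were seen. Positions are those of GENCODE for GRCm38, and promoters those of RefSeq (GRCm38.p6). Sums and figures were made with pandas 2.3.3, scipy 1.17.1, numpy 2.4.6 and matplotlib 3.10.9 under Python 3.11.15. Settings chosen after seeing the data were the removal of cells bearing other-lineage markers in the comparisons of mature subsets and of lineages, and that removal together with total UMIs. Values of 1 member are not reported here by name.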

Additional observations from a re-analysis of the deposited data

How the results depend on the processing

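In cycling and in Ltf-high against mature cells more nuclear members were higher than lower in each alternative run. That order turned in B-like (17 higher and 23 lower) and basophil-like cells (3 and 21) with total UMIs, in B-like cells also with the lineage gate of 6 UMIs (23 and 22), in cycling against Ltf-high cells (13 and 8) without cycling replicate 1, and in late immature against mature cells with other lineages in the same fit. The cause of the moves listed here was not tested. The activated comparison had 0 members called in every alternative run. The limits are the number of sums, 2 per stage, the 33 late immature cells and 55 cycling cells without other-lineage markers of YO2, and a depth at which 3 UMIs equal 27.7 CPM in the late immature sum of YO2. Among single named genes the direction turned for Cox6b1 in cycling against mature cells (0.70 with total UMIs, 0.53 with DESeq2, 0.51 with other-lineage cells left out and total UMIs), for Uqcrh (0.55 and 0.38 with total UMIs and DESeq2) and for Cox7a2l (0.15 with total UMIs).

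With total UMIs, nuclear members higher numbered 49 in B-like, 48 in C1q-macrophage-like, 47 in T-and-NK-like, 17 in basophil-like, 70 in classical-monocyte-like, 61 in dendritic-like, 58 in endothelial-like and 53 in nonclassical-monocyte-like cells, and nuclear members lower numbered 3 in B-like, 0 in C1q-macrophage-like, 0 in T-and-NK-like, 0 in alveolar-macrophage-like, 3 in basophil-like, 0 in classical-monocyte-like, 0 in dendritic-like, 1 in endothelial-like and 0 in nonclassical-monocyte-like cells. Mitochondrial members higher numbered 11 in basophil-like cells, and nuclear members higher numbered 56 in cycling against Ltf-high, 72 in cycling against mature and 1 in late immature against mature cells. Nuclear members lower numbered 0 in cycling against Ltf-high and 0 in cycling against mature cells. With DESeq2, nuclear members lower numbered 1 in Ltf-high against mature, 2 in cycling against Ltf-high and 2 in cycling against mature cells, and nuclear members higher numbered 40 in cycling against Ltf-high, 72 in cycling against mature and 5 in late immature against mature cells. With cells bearing other-lineage markers left out, nuclear members higher numbered 6 in basophil-like cells, and mitochondrial members higher numbered 7 in basophil-like cells. Nuclear members lower numbered 2 in Ltf-high against mature, 5 in cycling against Ltf-high and 3 in cycling against mature cells, and mitochondrial members higher numbered 5 in Ltf-high against mature and 3 in cycling against Ltf-high cells. Nuclear members higher numbered 20 in cycling against Ltf-high and 7 in late immature against mature cells, and mitochondrial members lower numbered 1 in late immature against mature cells. With those cells left out and total UMIs (added after seeing the data), nuclear members lower numbered 3 in Ltf-high against mature, 0 in cycling against Ltf-high, 2 in cycling against mature and 2 in late immature against mature cells, and mitochondrial members higher numbered 5 in Ltf-high against mature cells. Nuclear members higher numbered 55 in cycling against Ltf-high and 6 in late immature against mature cells, and mitochondrial members lower numbered 2 in late immature against mature cells. With gates on cells thinned to 500 UMIs, nuclear members lower numbered 4 in Ltf-high against mature, 4 in cycling against Ltf-high, 3 in cycling against mature and 2 in late immature against mature cells, and mitochondrial members lower numbered 1 in Ltf-high against mature cells. Nuclear members higher numbered 43 in late immature against mature cells, and mitochondrial members higher numbered 5 in late immature against mature cells. With doubled gates, nuclear members lower numbered 3 in Ltf-high against mature, 4 in cycling against Ltf-high and 1 in late immature against mature cells, mitochondrial members higher numbered 5 in Ltf-high against mature cells, and nuclear members higher numbered 5 in late immature against mature cells. With other lineages in the same fit, nuclear members lower numbered 1 in Ltf-high against mature, 4 in cycling against Ltf-high, 8 in cycling against mature and 3 in late immature against mature cells, and mitochondrial members higher numbered 1 in Ltf-high against mature cells. Mitochondrial members lower numbered 1 in Ltf-high against mature and 1 in late immature against mature cells, and nuclear members higher numbered 1 in late immature against mature cells. With granule and mt- genes left out of the library size, nuclear members lower numbered 3 in cycling against Ltf-high and 2 in cycling against mature cells. With no filter on low counts, nuclear members lower numbered 3 in cycling against Ltf-high and 2 in cycling against mature cells, nuclear members higher numbered 1 in late immature against mature cells, and mitochondrial members lower numbered 1 in late immature against mature cells. With a mitochondrial limit of 10%, mitochondrial members higher numbered 4 in Ltf-high against mature cells. With no mitochondrial limit, nuclear members lower numbered 7 in nonclassical-monocyte-like cells, mitochondrial members higher numbered 1 in Ltf-high against mature cells, and mitochondrial members lower numbered 1 in Ltf-high against mature cells. With a lineage gate of 6 UMIs over 3 markers, nuclear members higher numbered 25 in C1q-macrophage-like and 23 in T-and-NK-like cells, and mitochondrial members higher numbered 3 in basophil-like cells.

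As means of the pools, the shares in cycling, Ltf-high, late immature and mature cells were 1.24%, 0.750%, 0.529% and 0.544% for nuclear members and 3.77%, 1.49%, 1.05% and 1.11% for mitochondrial ones. With cells bearing other-lineage markers left out, the nuclear share was 1.10% in cycling and 0.509% in mature, and the mitochondrial share was 2.35% in cycling, 1.34% in Ltf-high, 0.798% in late immature and 0.779% in mature cells. With gates on cells thinned to 500 UMIs, the nuclear share was 0.810% in Ltf-high and 0.889% in late immature, and the mitochondrial share was 3.34% in cycling, 1.63% in Ltf-high and 2.04% in late immature cells. With doubled gates, the nuclear share was 0.501% in mature, and the mitochondrial share was 1.54% in Ltf-high and 0.810% in mature cells. With granule and mt- genes left out of the library size, the nuclear share was 1.49% in cycling, 1.0% in Ltf-high, 0.628% in late immature and 0.586% in mature, and the mitochondrial share was 4.51% in cycling, 2.0% in Ltf-high and 1.24% in late immature cells. With the mean over cells, the mitochondrial share was 3.56% in cycling, 1.40% in Ltf-high and 0.873% in late immature cells.

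Pools paired by the replicate block were the main design. With no replicate block, nuclear members lower numbered 3 in alveolar-macrophage-like, 2 in classical-monocyte-like and 8 in nonclassical-monocyte-like cells, and mitochondrial members higher numbered 1 in Ltf-high against mature cells. Nuclear members lower numbered 4 in cycling against Ltf-high and 2 in cycling against mature cells, and nuclear members higher numbered 1 in late immature against mature cells. No other count moved by more than 1.5 times without the block, with 42 nuclear members higher in cycling against mature cells.

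Leaving out each sum in turn, counts ranged as follows. For Ltf-high against mature cells they were nuclear members higher 14 to 54, nuclear members lower 0 to 2, mitochondrial members higher 0 to 4 and mitochondrial members lower 0 to 1. For cycling against Ltf-high cells they were nuclear members higher 4 to 17, nuclear members lower 1 to 18 and mitochondrial members higher 3 to 9. For cycling against mature cells they were nuclear members higher 28 to 55, nuclear members lower 2 to 6 and mitochondrial members higher 6 to 12. For late immature against mature cells they were nuclear members higher 0 to 8, nuclear members lower 0 to 1 and mitochondrial members lower 0 to 1.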
